A study of Homo sapiens with 30 samples.

Results

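The libraries described here come from SW1783 cells, a human astrocytoma line, that had been treated for 24 h with the water extract of Palmul-tang or of Sibjeondaebo-tang. Both are multi-herb decoctions of traditional Korean medicine, and Sibjeondaebo-tang adds herbs to those of Palmul-tang. The comparison sets 500 µg/mL, which the labels call the high dose, against 100 µg/mL, the medium dose. It uses 12 of the 30 libraries of the series: 6 at 500 µg/mL and 6 at 100 µg/mL, with 3 of each formula at each dose, chosen by their labels and by no measured value. The doses are of whole extract, so no single compound has a known concentration. As reference, the same formulas at 20 µg/mL had 6 libraries and the vehicle, DMSO, had 3. The sample labels put the vehicle at 0.1% DMSO, while the text of the series states another share. Whether the libraries of a group are from separate cultures is not labelled, and the spread behind the p-values may therefore be technical. All 30 titles name the same batch, C. The vehicle libraries carry sample codes with a prefix of their own, whose meaning is not labelled, and vehicle values are given only as levels.

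The question was which genes move at the upper dose step, from 100 to 500 µg/mL, and which of them do not move at the lower step, from 20 to 100 µg/mL. Each step multiplies the dose by 5. Both steps were read from 1 fit of 21 libraries with formula as a covariate, by edgeR's quasi-likelihood test, and a gene is called when its p, adjusted over all 16876 genes tested by the Benjamini-Hochberg method, is under 0.05. Values are CPM, the counts scaled to a common library size, and changes are log2 fold changes with their SE. The steps share the 100 µg/mL libraries, so a chance high value there lowers the upper step and raises the lower one. The difference between the steps was therefore tested on its own, as the upper change minus the lower.

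Total counts ran from 25.25 M to 32.53 M at 500 µg/mL and from 23.45 M to 37.82 M at 100 µg/mL. None of 5 library measures had a p under 0.05 between the doses by a two-sided exact permutation test of 6 against 6, without regard to formula. The closest was the share of counts on the nuclear retained RNAs MALAT1 and NEAT1. It was 0.148% ± 0.00931 (SD, n = 6) at 500 against 0.159% ± 0.00887 at 100 (exact p = 0.0606, adjusted 0.303, where 0.00216 is the smallest p that the design allows). Gene by gene, edgeR called 2 of 5 nuclear retained RNAs lower at 500 than at 100, NEAT1 and MEG3, and 0 higher. Over all genes these shares were 3.47% and 3.77%. Of the astrocyte markers, GFAP, AQP4, S100B and ALDH1L1 were nearly absent at 500 µg/mL, with means of 0.0656, 0.0114, 0.0565 and 0.0176 CPM, while VIM and CD44 were abundant. Of the 8 astrocyte markers tested, GLUL fell by 0.16 and SOX9 by 0.11 on the log2 scale from 100 to 500 µg/mL and none rose, and the neuron marker SYT1 fell by 0.17. The summed astrocyte markers ran from 8010 to 8400 CPM at 100 and from 8160 to 8540 at 500. Markers of leukocytes and oligodendrocytes were under 0.5 CPM apart from PTPRC and MBP, and the fibroblast collagens COL1A1 and COL1A2 were abundant at every dose.

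NF-kappa B is a family of dimeric transcription factors held in the cytoplasm by inhibitor proteins. When a stimulus leads to the breakdown of the inhibitor, the dimers enter the nucleus and switch on cytokines, chemokines and adhesion molecules together with their own inhibitors, which closes a feedback loop. In astrocytes and glioma cells the pathway is known for the release of CXCL8, IL6 and CCL2. Bone morphogenetic proteins (BMPs) signal through receptor kinases to SMAD proteins, which switch on the ID genes, whose products block basic helix-loop-helix factors, and the inhibitory SMADs, which again act back on the pathway. In glial precursors BMP signals and ID proteins are known to steer cells between astrocyte and neuron fates.

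Between 100 and 500 µg/mL 1222 genes were called, 7.24% of those tested, with 636 higher (3.77%) and 586 lower (3.47%) at 500. Between 20 and 100 µg/mL 102 genes were called (0.604%), with 83 higher (0.492%) and 19 lower (0.113%). Most upper step changes were small: of the 1222 called genes 82 reached 1.5-fold and 17 reached 2-fold. In both formulas, all 3 libraries at 500 lay above all 3 at 100 for 522 genes (3.09%) and below them for 464 (2.75%). The precision was alike for both steps: among the 10287 genes whose mean log2 CPM was 3 or more, the 95% interval reached, in the median, 0.0724 to either side of the upper step and 0.0725 to either side of the lower.

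The test of the difference called 90 genes (0.533%), 39 with the larger change upward and 51 downward. All 90 were also called at the upper step in the same direction. Of these, 65 (0.385%) had no call at the lower step and form the upper step class: 19 rose (0.113%) and 46 fell (0.273%). Their median absolute change was 0.33 at the upper step and 0.0484 at the lower. A further 78 genes rose at both steps (0.462%) and 15 fell at both (0.0889%). Only 2 genes were called in opposite directions (0.0119%): IGFBP3, an insulin-like growth factor carrier, with 0.09 at the lower step and -0.13 at the upper, and PLAT, tissue plasminogen activator, with -0.13 and 0.11.

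**Figure D1:**
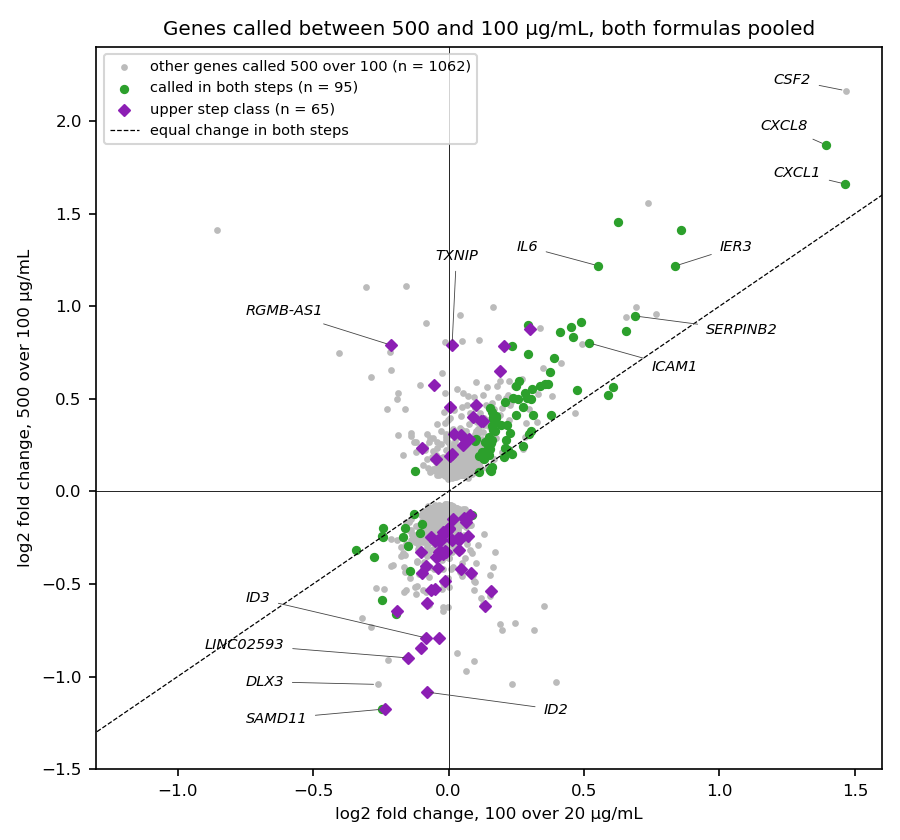
Log2 fold change from 20 to 100 µg/mL (x axis) against that from 100 to 500 µg/mL (y axis) for the 1222 genes called at the upper step, both formulas pooled; grey points are the other called genes, green points are called at both steps, purple diamonds are the 65 genes of the upper step class, and the dashed line marks equal change. The steps share the 100 µg/mL libraries; the cytokines lie far up on the right, while ID2 and ID3 lie near 0 on the x axis.

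The chemokine CXCL8, which draws neutrophils, rose at both steps (ENSG00000169429, chromosome 4, 73740506 to 73743716 in GRCh38). With Palmul-tang its 3 libraries read 108, 109 and 102 CPM at 500 µg/mL against 30, 29.3 and 29.3 at 100, and with Sibjeondaebo-tang 133, 118 and 108 against 33.3, 34.8 and 28.3. Every library at 500 lay above every library at 100, and those in turn above all at 20 µg/mL, which read 10.4 to 12.9, beside 10.9 ± 1.57 (SD, n = 3) in vehicle. The upper change was 1.87 ± 0.0625 (adjusted p = 6.92e-14) and the lower 1.39 ± 0.0797 (adjusted p = 4.21e-09), and the difference between them was not called (0.48 ± 0.124, adjusted p = 0.141). These are bulk samples, so more CXCL8 per cell and more cells that make it cannot be told apart.

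IL6, an inflammatory cytokine (ENSG00000136244, chromosome 7, 22725884 to 22732002), stood at 18.5, 19.1 and 20.5 CPM with Palmul-tang at 500 µg/mL and at 22.1, 23.7 and 21.7 with Sibjeondaebo-tang. At 100 µg/mL it read 8.05, 9.66 and 9.39 with Palmul-tang and 9.11, 9.09 and 8.82 with Sibjeondaebo-tang, and at 20 µg/mL 4.97 to 7.46. The doses did not overlap, and the step from 100 to 500 was the wider. Its upper change of 1.22 ± 0.0638 (adjusted p = 1.65e-16) exceeded the lower one of 0.55 ± 0.0757 by 0.66 ± 0.122 (adjusted p = 0.00327). Genes on the opposite strand overlap IL6, and their own counts equal 18.1% of those of IL6. The strand used in counting is not given in the sources used here, so the reads of these genes cannot be told apart.

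The starts of both genes show what kind of sequence lies there. The 250 bases before the start site are printed 5′ to 3′ from RefSeq on GRCh38.p14, in lower case, with matches in capitals: the AP-1 motif TGANTCA and the short kappa B form GGAATTTCC in CXCL8 (chr4:73740319-73740568, plus strand), and the longer kappa B consensus in IL6 (chr7:22726950-22727199, plus strand).
CXCL8: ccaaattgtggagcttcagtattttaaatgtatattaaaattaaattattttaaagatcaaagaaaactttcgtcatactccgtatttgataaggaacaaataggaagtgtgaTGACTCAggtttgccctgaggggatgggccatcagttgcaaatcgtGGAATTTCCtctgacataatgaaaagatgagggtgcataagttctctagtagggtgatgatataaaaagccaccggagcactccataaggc
IL6: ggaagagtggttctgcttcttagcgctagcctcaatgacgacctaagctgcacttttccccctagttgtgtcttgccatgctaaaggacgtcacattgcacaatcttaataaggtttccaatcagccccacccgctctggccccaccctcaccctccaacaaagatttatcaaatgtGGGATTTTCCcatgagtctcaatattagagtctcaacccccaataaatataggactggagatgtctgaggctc
The CXCL8 matches begin 137 bases (AP-1) and 91 bases (kappa B) before the start, and the IL6 match GGGATTTTCC begins 73 bases before it. Both strands were searched. The gene bounds printed here come from GENCODE 29 and the start sites from RefSeq. A window can therefore lie partly or wholly inside the printed bounds, and it lies wholly inside for IL6, ID2 and SAMD11. The kappa B consensus was present in 14 of the 32 list promoters available (43.8%), against 11.6% of the 11760 tested genes with a promoter. The short form, added after the CXCL8 sequence was seen, was present in 9 of the 32 (28.1%) against 0.391%. The matches describe the letters only and show no binding.

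The list of NF-kappa B targets and cytokines had 39 tested members. At the upper step 36 rose and none fell, where 3.77% of all genes rose, with a median log2 fold change of 0.57 beside 0.0003 over all genes. At the lower step 25 rose, where 0.492% of all genes did, with a median of 0.29 beside 0.0001. All 25 rose at both steps. The difference was called upward for 10 members (0.231% of all genes), and 1 of them, NFKBIZ, belongs to the upper step class. Of the 39, 3 were not called at the upper step: BCL3, NFKBIB and TNFAIP6, the last with -0.02 ± 0.0634. The list was set up with earlier results of these data known, so its direction is no independent evidence.

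Among the chemokines, CXCL1 rose by 1.66 ± 0.117 and CXCL2 by 1.45 ± 0.113 on the log2 scale at the upper step, from medians of 1.7 and 1.57 CPM at 100 µg/mL to 5.2 and 4.6 at 500. CXCL3 rose by 1.41 ± 0.131. CCL2, which draws monocytes, ran from 66.9 through a median of 72.3 to 75.2 CPM at 500 and from 38.1 through 39.5 to 40.9 at 100, without overlap. Its upper change of 0.86 ± 0.035 exceeded its lower change of 0.41 ± 0.038 (difference adjusted p = 3.96e-05). At 100 µg/mL CCL2 was near its vehicle level of 40.7 ± 1.64 CPM, and at 20 µg/mL it was under it, at 26.8 to 33.

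The colony-stimulating factor CSF2, scarce in these cells, had the largest fold in the list, from a median of 0.248 CPM to 1.3 (2.16 ± 0.248, adjusted p = 2.6e-08). CSF3, its granulocyte counterpart, rose by 1.56 ± 0.147 from a median of 0.772 CPM to 2.33. Both were under a mean log2 CPM of 1 and their lower steps, 1.47 ± 0.4 and 0.74 ± 0.19, were not called. IL1B, an inflammatory cytokine, read 11.9, 13.6 and 14.9 CPM (lowest, median, highest of 6) at 500 and 6.08, 7.31 and 8.2 at 100, a change of 0.92 ± 0.0658. LIF, a cytokine of the IL6 family, went from 46.4, 48.5 and 50.5 CPM to 84.1, 86.7 and 98.2, beside 56.8 ± 4.16 (SD, n = 3) in vehicle. Its upper change of 0.89 ± 0.0452 exceeded the lower one of 0.45 ± 0.0491 (difference adjusted p = 0.00941).

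Of the effector genes of the list, SOD2, the mitochondrial superoxide dismutase, went from 185, 190 and 196 CPM to 314, 333 and 382 (0.83 ± 0.0321, adjusted p = 5.52e-19). ICAM1, an adhesion molecule for leukocytes, went from 96.1, 102 and 108 to 174, 178 and 182 (0.80 ± 0.0305, adjusted p = 1.13e-21). PTX3, a secreted pattern recognition protein, went from 43.2, 46.1 and 48.7 to 74.1, 79.4 and 83.5 (0.78 ± 0.0386). None of these groups overlapped, and all 3 genes had a larger upper than lower step, with adjusted p for the difference of 0.000252, 0.00491 and 1.37e-05. WTAP overlaps SOD2 on the opposite strand, and its own counts equal 51.6% of those of SOD2.

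Among the feedback inhibitors, TNFAIP3, an enzyme that ends NF-kappa B signals, rose by 0.58 ± 0.0319 from a median of 32.2 CPM to 48.2. NFKBIA, the inhibitor that holds the dimers in the cytoplasm, rose by 0.45 ± 0.0273 from 60 to 82.4 CPM. Of the subunits, NFKB2 rose by 0.53 ± 0.0349, RELB by 0.50 ± 0.0406, and NFKB1 and RELA by 0.19 and 0.10. For TNFAIP3, NFKBIA, NFKB2 and RELB the difference between the steps was not called, with adjusted p between 0.0558 and 0.428.

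**Figure D2:**
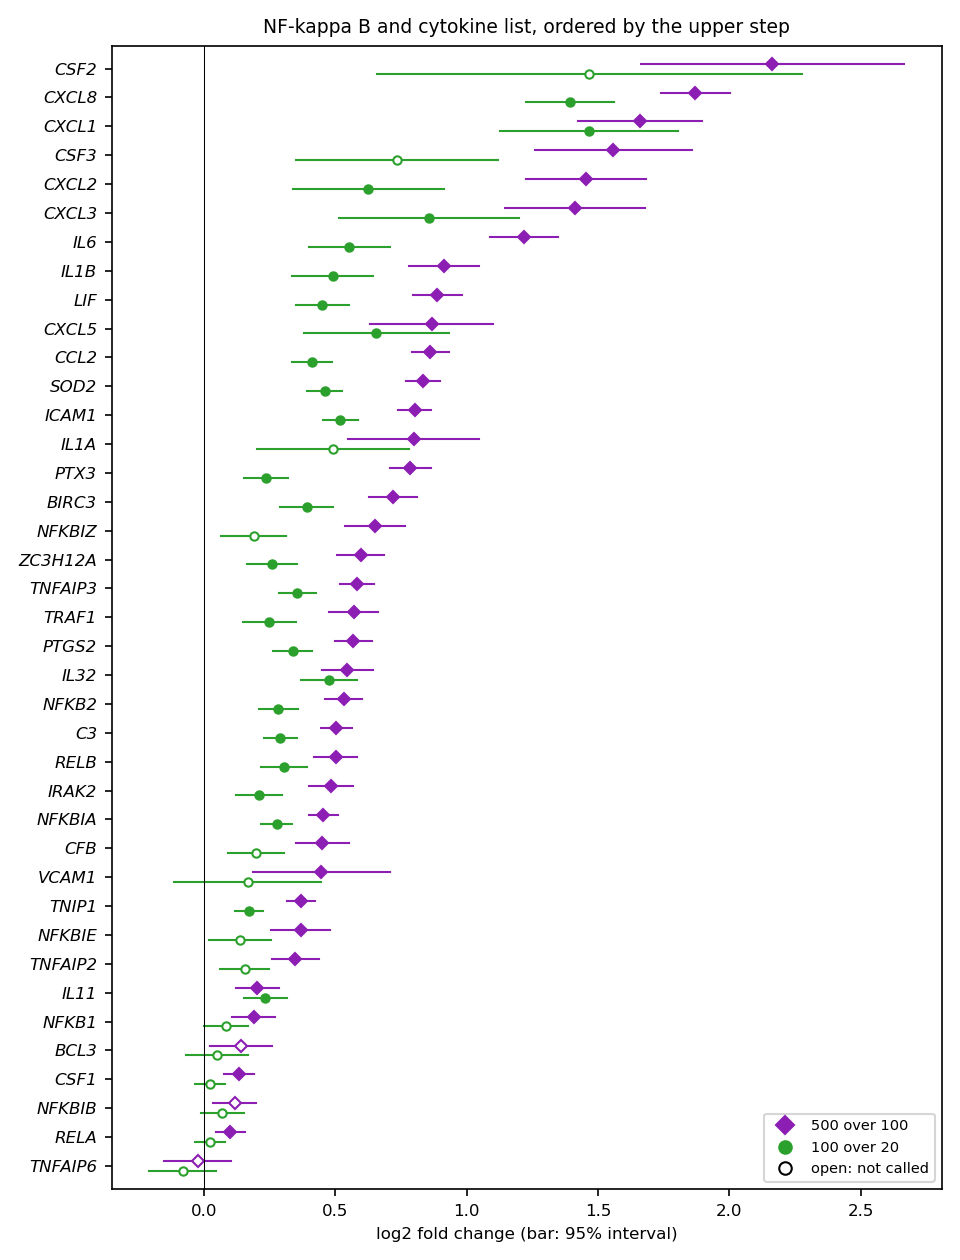
Log2 fold change (x axis, with 95% interval) of the 39 tested members of the NF-kappa B and cytokine list, ordered by the upper step; purple diamonds show 500 over 100 µg/mL, green circles 100 over 20 µg/mL, and open symbols are not called. At the upper step 36 of 39 are filled to the right of 0, and the lower step symbols lie between 0 and the upper step for most genes.

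Outside that list, IER3, an early response gene that guards against cell death, went from 2.54, 3.12 and 3.51 CPM to 6.44, 7.02 and 7.62 (1.22 ± 0.0834). Its lower step was 0.84 ± 0.105, and the difference was not called (adjusted p = 0.59). SERPINB2, an inhibitor of plasminogen activators, went from 51.4, 59.2 and 63 CPM to 103, 117 and 121 (0.95 ± 0.0509), beside 0.69 ± 0.056 at the lower step. CLDN1, a tight junction protein, rose mostly at the upper step: 6.08, 6.87 and 7.16 CPM at 100 became 12, 12.5 and 13.5 at 500 (0.90 ± 0.0579), and the change from 20 to 100 was 0.29 ± 0.0655 (difference adjusted p = 0.00158). The serpins and plasminogen activators had 15 tested members, of which 7 rose and SERPINH1, a collagen chaperone, fell, beside 3.77% and 3.47% of all genes, with a median of 0.185. The activator PLAU and its receptor PLAUR rose by 0.20 and 0.19. At 500 µg/mL PLAU read 116 to 134 CPM, beside 130 to 136 in vehicle. PLAUR read 84.3 to 93.1 CPM at 500, beside 87.3 to 91.2 in vehicle.

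TXNIP rose at the upper step and was not called at the lower. Its product binds thioredoxin and limits glucose uptake (ENSG00000265972, chromosome 1, 145992435 to 145996600, minus strand). At 500 µg/mL it stood at 16.5, 17.4 and 14.6 CPM with Palmul-tang and at 16.2, 16.7 and 16.0 with Sibjeondaebo-tang. At 100 µg/mL it read 8.61, 9.2 and 9.73 with Palmul-tang and 10.8, 8.74 and 9.31 with Sibjeondaebo-tang, at 20 µg/mL 8.43 to 10.1 and in vehicle 9.63 to 10.2. The libraries at 500 stood alone, and those at 100 overlapped those at 20 and the vehicle. The upper change was 0.79 ± 0.0556 (adjusted p = 6.87e-14), the lower 0.01 with a 95% interval from -0.11 to 0.13, and the difference 0.78 ± 0.101 (adjusted p = 1.28e-05).

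The TXNIP promoter was chosen by the rank of its difference between the steps (chr1:145996580-145996829, minus strand, RefSeq on GRCh38.p14). None of the motifs searched was found in these 250 bases. The E-box was searched only as the exact letters CACGTG, which 8.66% of the tested promoters hold. Other forms of it were not searched for.
TXNIP: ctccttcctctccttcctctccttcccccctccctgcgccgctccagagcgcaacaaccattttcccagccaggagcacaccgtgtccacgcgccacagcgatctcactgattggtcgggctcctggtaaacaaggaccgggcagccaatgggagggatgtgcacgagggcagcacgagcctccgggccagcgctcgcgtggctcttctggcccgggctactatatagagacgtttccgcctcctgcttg
The absence says only that these letters do not occur in this window. The list of glucose sensing and arrestin family genes around TXNIP moved both ways: of 13 tested members 3 rose and 4 fell at the upper step, beside 3.77% and 3.47% of all genes. None was called at the lower (0.604% of all genes), where 2 had an unadjusted p under 0.05 and DESeq2 called 0. ARRDC4, another alpha-arrestin, rose by 0.22 ± 0.0635 (adjusted p = 0.0255). That call was lost without Palmul-tang replicate 1, 2 or 3 at 500 µg/mL, Palmul-tang replicate 1 or 3 at 100 or Sibjeondaebo-tang replicate 2 at 100, with adjusted p from 0.0501 to 0.0768. ARRDC3 fell by 0.13 on the log2 scale, and PFKFB3, a regulator of glycolysis, fell by 0.19.

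Several other genes of the upper step class rose. FOSL1, an AP-1 subunit, went from 206, 211 and 230 CPM to 262, 282 and 299 (0.40 ± 0.0282, difference adjusted p = 0.000252), with 0.09 at the lower step. In vehicle FOSL1 read 276 ± 9.06 CPM (SD, n = 3), above its libraries at 100 and within the range at 500. CCN1, a matricellular target of YAP, rose by 0.30 ± 0.0254 from a mean of 432 ± 4.83 CPM (SD, n = 6) to 533 ± 20.9, with 0.05 at the lower step. NFKBIZ, a nuclear co-factor of NF-kappa B, rose by 0.65 ± 0.0565, KRTAP2-3, a keratin associated protein, by 0.88 ± 0.0689, RRAD, a small GTPase, by 0.79 ± 0.0648 and TMEM171 by 0.58 ± 0.0787. At the lower step, not called, NFKBIZ was at 0.19 (95% interval 0.06 to 0.31), KRTAP2-3 at 0.30 (0.14 to 0.46) and RRAD at 0.21 (0.06 to 0.35), intervals that leave out 0, and TMEM171 was at -0.05. For these last 4 the call of the difference between the steps was lost without single libraries at 100 µg/mL. For NFKBIZ they were Palmul-tang replicate 1 and Sibjeondaebo-tang replicates 1 and 2 (adjusted p 0.0577 to 0.127), and for TMEM171 Palmul-tang replicate 1 (0.116) and Sibjeondaebo-tang replicate 3 (0.0552). For KRTAP2-3 they were Palmul-tang replicate 3 and Sibjeondaebo-tang replicates 1 and 3 (0.0618 to 0.0777), and for RRAD Palmul-tang replicates 2 and 3 and Sibjeondaebo-tang replicate 3 (0.058 to 0.069). KRTAP2-3 at 100 µg/mL, 4.11 to 5.18 CPM, was under its vehicle level of 6.27 ± 0.279.

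**Figure D3:**
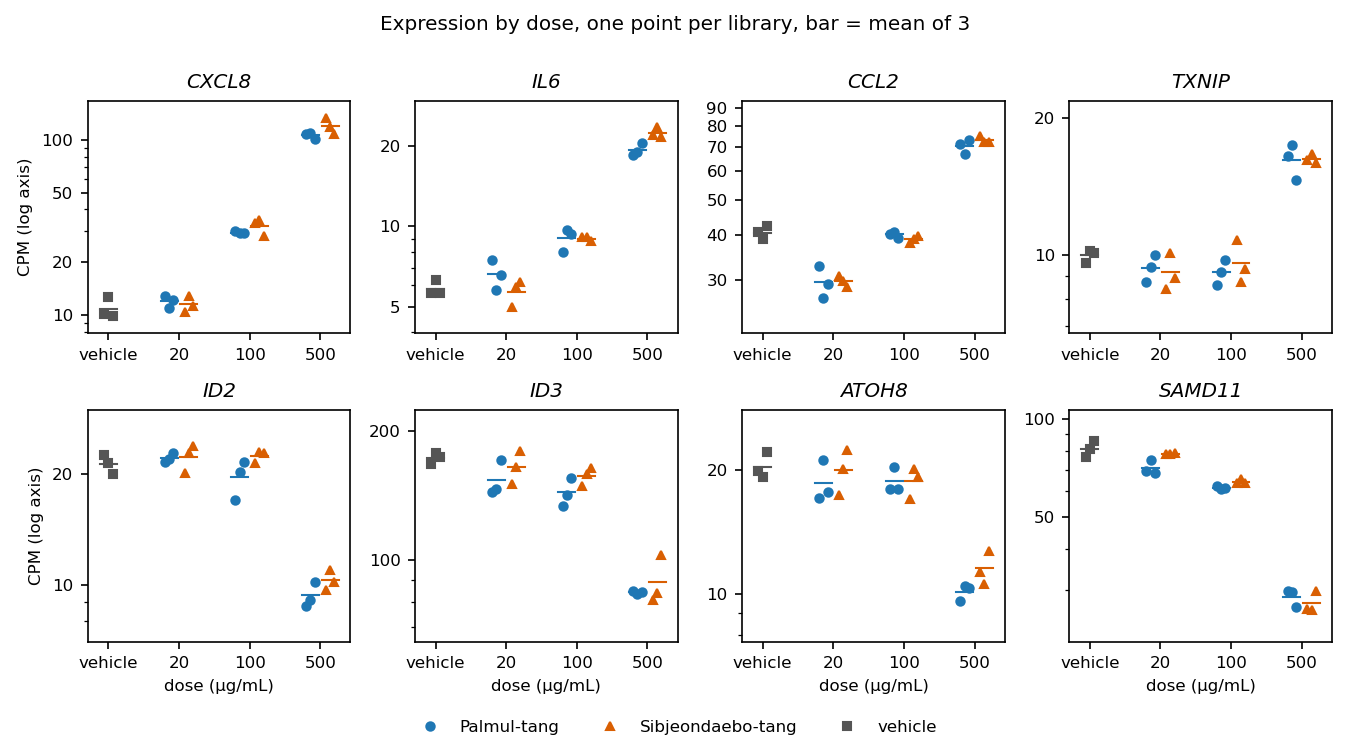
CPM on a log axis for 8 genes by dose, with 1 point per library and a bar at the mean of 3 libraries; circles are Palmul-tang, triangles Sibjeondaebo-tang and squares vehicle. CXCL8, IL6 and CCL2 climb at both steps, TXNIP only at 500 µg/mL, and ID2, ID3, ATOH8 and SAMD11 stand lower at 500 µg/mL than in any other group.

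Targets of BMP signals were among the genes that fell. ID2, an inhibitor of basic helix-loop-helix factors (ENSG00000115738, chromosome 2, 8678845 to 8684453), stood at 8.82, 9.14 and 10.2 CPM with Palmul-tang at 500 µg/mL and at 9.72, 11 and 10.2 with Sibjeondaebo-tang. At 100 µg/mL it read 17, 20.2 and 21.5 with Palmul-tang and 21.4, 22.9 and 22.7 with Sibjeondaebo-tang, at 20 µg/mL 20.1 to 23.8 and in vehicle 19.9 to 22.5. The libraries at 500 µg/mL stood apart from all others, while those at 100, 20 and vehicle overlapped. The upper change was -1.08 ± 0.0575 (adjusted p = 7.05e-17), the lower -0.08 with a 95% interval from -0.19 to 0.02, and the difference -1 ± 0.0934 (adjusted p = 7.41e-09).

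The other ID genes fell as well. ID3 stood at 84.8, 83.8 and 84.5 CPM with Palmul-tang at 500 and at 81.1, 84.0 and 103 with Sibjeondaebo-tang, against 134, 142 and 156 and 149, 159 and 164 at 100. No library at 500 reached the lowest at 100, and the upper change was -0.79 ± 0.0613 (difference adjusted p = 0.00221). ID1 went from 215, 233 and 258 CPM to 145, 150 and 179 (-0.60 ± 0.0459, difference adjusted p = 0.00173). In both ID1 and ID3 the highest library at 500 was Sibjeondaebo-tang replicate 3, the library that stood farthest from its replicates over all genes. ID4 went from 2.54, 2.91 and 3.38 CPM to 1.17, 1.52 and 1.87 (-0.91 ± 0.125). Its lower step was -0.22 with an interval from -0.45 to -0.00, and the difference was not called (adjusted p = 0.17).

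The BMP and ID list had 25 tested members. At the upper step 14 fell and 1 rose, where 3.47% of all genes fell and 3.77% rose, with a median of -0.24. At the lower step 1 member, GREM1, rose and none fell, where 0.492% of all genes rose and 0.113% fell. The median there was -0.02, 5 members had an unadjusted p under 0.05 by edgeR, and DESeq2 called 1 higher and 0 lower. Of the 14, 9 belong to the falling part of the upper step class (0.273% of all genes), among them ID1, ID2, ID3, ATOH8, SMAD6, SMAD7, SMAD9 and DLX2. Like the NF-kappa B list it was set up with earlier results known.

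By role, the ligand BMP4 fell by 0.24 on the log2 scale and BMP2 was not called (0.15, with a 95% interval from -0.12 to 0.41). GREM1, a BMP antagonist, rose by 0.41 ± 0.0503, from 20.4, 21.9 and 23.3 CPM to 26.2, 29.3 and 33. Of the receptors, ENG fell by 0.12, while BMPR1A, BMPR1B and BMPR2 were not called. RGMB, a co-receptor for BMPs that was singled out after its values were seen and is on no list, rose by 0.46 ± 0.0296 from 66.5, 69.2 and 72 CPM to 89.4, 96.3 and 98.7, with 0.10 at the lower step (difference adjusted p = 5.69e-05).

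The inhibitory SMADs fell. SMAD6 went from 10.2, 11.6 and 13.5 CPM to 6.37, 7.63 and 8.31 (-0.65 ± 0.0601), with -0.19 (95% interval -0.30 to -0.08, not called) at the lower step, and SMAD7 from 16.6, 18.3 and 21.3 to 12.2, 13.5 and 15.5 (-0.42 ± 0.0547, difference adjusted p = 0.0072). SMAD9, a signal transducer of the pathway with low counts, fell by 0.62 ± 0.112. The difference between the steps was at an adjusted p of 0.0164 for SMAD6, and at 0.0539 to 0.122 without Palmul-tang replicate 2 or 3 or Sibjeondaebo-tang replicate 2 at 100 µg/mL. For SMAD9 it was 0.048, and the call was lost without any 1 of 12 libraries, with adjusted p from 0.0522 without Sibjeondaebo-tang replicate 2 at 20 µg/mL to 0.162 without Palmul-tang replicate 3 at 100. Of the other transcription factors, ATOH8 read 9.62, 10.5 and 10.4 CPM with Palmul-tang and 11.3, 10.6 and 12.8 with Sibjeondaebo-tang at 500, against 17.1 to 20.3 at 100 (-0.79 ± 0.0674, lower step -0.03). DLX2 went from 17.5, 18.7 and 20.6 CPM to 12.7, 13.9 and 15.9 (-0.44 ± 0.0435), and DLX3 from 1.72, 2.15 and 2.53 to 0.859, 1.04 and 1.255 (-1.04 ± 0.129, difference adjusted p = 0.0801). HES1, a Notch and BMP target, fell by 0.14 with an adjusted p of 0.0362. That call was lost without replicate 1 or 2 of Sibjeondaebo-tang at 100, replicate 2 of Palmul-tang at 100, replicate 3 of Palmul-tang at 500 or replicate 2 or 3 of Sibjeondaebo-tang at 500, with adjusted p from 0.0643 to 0.122.

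**Figure D4:**
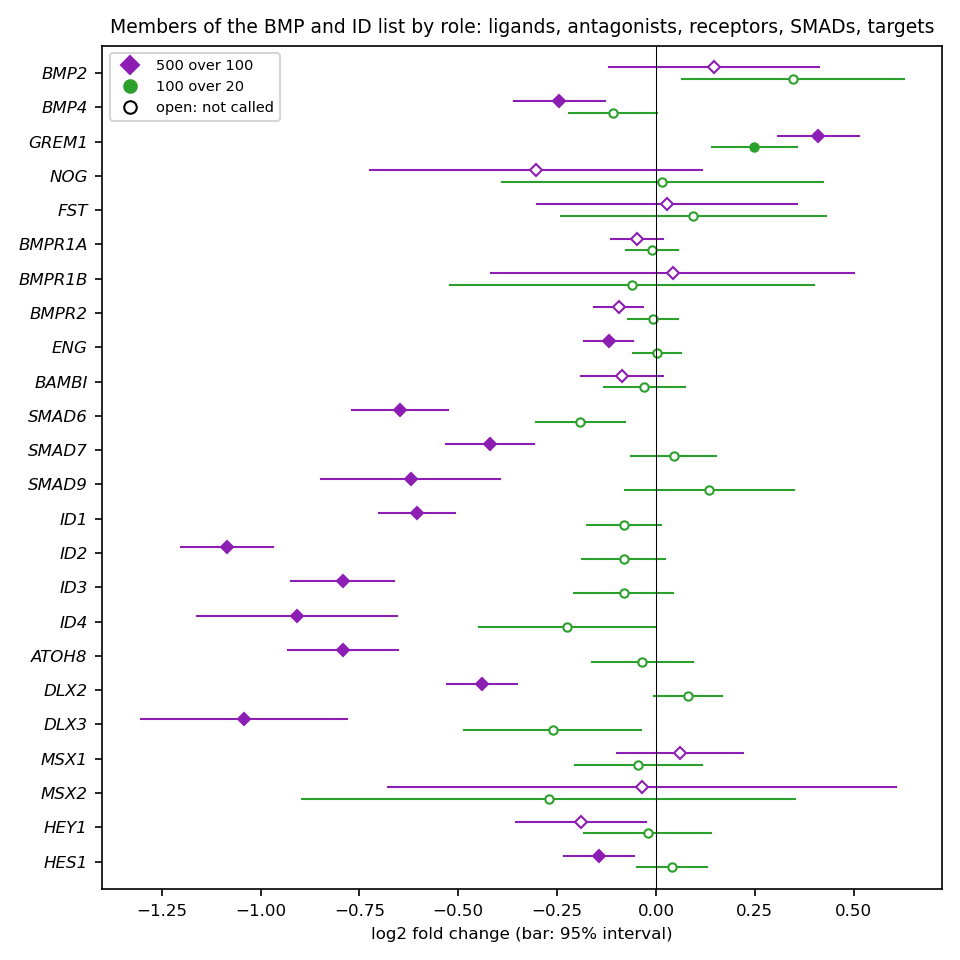
Log2 fold change (x axis, with 95% interval) of tested members of the BMP and ID list, ordered by role from ligands through antagonists, receptors and SMADs to target genes; purple diamonds show 500 over 100 µg/mL, green circles 100 over 20 µg/mL, and open symbols are not called. From SMAD6 to DLX3 the filled diamonds lie left of 0 while the green symbols are open.

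The ID2 promoter is shown as that of the list member that fell most (chr2:8681806-8682055, plus strand, RefSeq on GRCh38.p14), with a match to the kappa B consensus in capitals and no match to the SMAD element GGCGCC.
ID2: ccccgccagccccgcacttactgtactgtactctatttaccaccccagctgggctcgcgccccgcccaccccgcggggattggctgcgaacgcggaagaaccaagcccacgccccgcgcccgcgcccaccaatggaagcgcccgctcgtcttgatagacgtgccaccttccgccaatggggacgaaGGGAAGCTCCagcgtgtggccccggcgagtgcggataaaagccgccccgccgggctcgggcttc
The match GGGAAGCTCC begins 64 bases before the start. In the BMP and ID list 4 of 20 promoters held GGCGCC (20.0%) against 25.4% of the tested promoters, and 3 held the kappa B consensus (15.0% against 11.6%).

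SAMD11, a SAM domain protein gene (ENSG00000187634, chromosome 1, 923928 to 944581, plus strand), had the largest fall of the genes named here. It read 29.6, 29.4 and 26.4 CPM with Palmul-tang and 26.2, 26.0 and 29.8 with Sibjeondaebo-tang at 500 µg/mL, against 62.2, 61.0 and 61.7 and 63.5, 65.7 and 63.7 at 100. At 20 µg/mL it read 68.4 to 78.6, above all libraries at 100, and in vehicle 76.4 to 85.6. The upper change of -1.18 ± 0.0395 (adjusted p = 3.19e-22) exceeded the lower of -0.24 ± 0.0357 by -0.93 ± 0.0641 (adjusted p = 3.6e-12), so SAMD11 moved at both steps and mostly at the upper. Its promoter (chr1:925481-925730, plus strand, RefSeq on GRCh38.p14) was chosen by the rank of the gene's fall. It holds 3 matches to GGCGCC, in capitals, which begin 243, 151 and 62 bases before the start.
SAMD11: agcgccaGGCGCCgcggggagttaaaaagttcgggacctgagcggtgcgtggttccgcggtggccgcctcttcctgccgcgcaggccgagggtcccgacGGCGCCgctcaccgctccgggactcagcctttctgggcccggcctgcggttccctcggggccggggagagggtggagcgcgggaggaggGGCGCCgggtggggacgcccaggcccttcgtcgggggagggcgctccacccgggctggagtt
The long non-coding LINC02593 (916865 to 921016, minus strand), just upstream, fell by 0.90 ± 0.0628, from 7.19 to 8.75 CPM at 100 to 3.98 to 4.72 at 500, and belongs to the upper step class. The unnamed gene ENSG00000230699 (911435 to 914948), singled out after its values were seen, fell by 1.17 ± 0.12. NOC2L overlaps the end of SAMD11 on the opposite strand, and its own counts equal 276% of those of SAMD11. NOC2L was at 0.03 ± 0.0241 and was not called.

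SELENOW, a selenoprotein, went from 53.4, 54.8 and 56.8 CPM to 31.8, 35.1 and 37 (-0.66 ± 0.0332) with -0.19 ± 0.0313 at the lower step (difference adjusted p = 1.75e-06). UCA1, a long non-coding RNA, went from 4.47, 4.92 and 5.19 to 2.05, 2.58 and 3.55 CPM (-0.84 ± 0.1), and the difference, at an adjusted p of 0.0175, was 0.0705 and 0.0508 without Sibjeondaebo-tang replicate 2 and 3 at 100 µg/mL. SMIM11, which has a near-identical copy so that reads may be split between them, gave -0.97 with a wide SE of 0.248. At 100 µg/mL it ran from 10 to 23 CPM and at 500 from 6.25 to 10.7, so the libraries overlapped. Its call (adjusted p = 0.022) was lost without replicate 1 of Sibjeondaebo-tang or 3 of Palmul-tang at 100, or without replicate 3 of either formula at 500, with adjusted p from 0.0503 to 0.0577.

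Smaller shifts ran through other lists. Of 27 tested NRF2 targets, genes of the antioxidant response, 11 rose and none fell at the upper step, where 3.77% of all genes rose and 3.47% fell, with a median of 0.10. None was called at the lower step (0.604% of all genes), where 6 had an unadjusted p under 0.05, the median was -0.00 and DESeq2 called 1. AKR1B1, an aldose reductase, rose by 0.38 ± 0.0302 from a mean of 242 ± 8.28 CPM to 315 ± 22.5, NQO1 by 0.19 and TXNRD1 by 0.20, while HMOX1, with 0.05 ± 0.033, was not called (adjusted p = 0.474). At the lower step AKR1B1 was at 0.12 (95% interval 0.06 to 0.18, not called). AKR1B1 and TXNRD1 belong to the upper step class, but without Palmul-tang replicate 2 at 100 µg/mL their difference tests were at 0.051 and 0.0663, and that of TXNRD1 was at 0.0616 when Palmul-tang replicate 3 was left out and at 0.116 when Sibjeondaebo-tang replicate 3 was. Of 30 immediate early genes 12 rose (3.77% of all genes) and none fell (3.47%), with a median of 0.11, led after IER3 and FOSL1 by DUSP6 (0.32) and PHLDA1 (0.28).

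Of 32 hypoxia and glycolysis genes 11 fell and 2 rose, beside 3.47% and 3.77% of all genes, with a median of -0.06. P4HA1, a collagen prolyl hydroxylase, went from 255 ± 6.07 CPM (SD, n = 6) to 220 ± 8.21 (-0.21 ± 0.025). NDRG1 fell by 0.25 and LDHA, lactate dehydrogenase A, by 0.15. In contrast ANGPTL4, a lipase inhibitor, rose by 0.27, and VEGFA was not called (0.07, adjusted p = 0.0529). At 500 µg/mL ANGPTL4 read 13.6 to 15.8 CPM, under its vehicle level of 20.1 to 22.7. None of the 32 was called at the lower step (0.604% of all genes), where 5 had an unadjusted p under 0.05 and DESeq2 called 0. The difference test of P4HA1 was at an adjusted p of 0.0118 and at 0.0527 without Sibjeondaebo-tang replicate 1 at 100 µg/mL. Contractile genes fell in 8 of 16 (3.47% of all genes) and rose in none, with a median of -0.06. ACTA2, smooth muscle actin, went from 99.7 ± 3.61 CPM to 79.4 ± 2.72 (-0.33 ± 0.0268) and TPM1, a tropomyosin, from 699 ± 10.7 to 610 ± 22.2 (-0.20 ± 0.0239), and both belong to the upper step class. At the lower step ACTA2 was at -0.10 (95% interval -0.15 to -0.05, adjusted p = 0.0696) and TPM1 at 0.00. At 20 µg/mL ACTA2 read 104 to 109 CPM, already under its vehicle level of 138 to 147. TPM1 read 651 to 733 CPM at 20 µg/mL, beside 750 to 752 in vehicle. The extracellular matrix list overlaps the contractile list in ACTA2 and TAGLN and had 10 of 32 lower and 3 higher (3.47% and 3.77% of all genes). The summed level of the 6 fibroblast and pericyte markers, which include COL1A1 and COL1A2, ran from 5910 to 5960 CPM at 100 µg/mL and from 5340 to 6030 at 500, and its part in these counts was not tested.

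Keratins and epithelial junction genes had 14 tested members: CLDN1 rose (3.77% of all genes) and 5 fell (3.47%), among them KRT18 by 0.30 and KRT7 by 0.37. The summed level of the 5 epithelium markers, nearly all of it KRT18 and KRT8, ran from 149 to 163 CPM at 100 µg/mL and from 121 to 132 at 500, while EPCAM and CDH1 were under 0.1 CPM in the mean of every dose. These 2 keratins overlap each other on opposite strands. Among growth factors and receptors 7 of 25 rose and 5 fell, beside 3.77% and 3.47% of all genes: HGF, hepatocyte growth factor, rose by 0.30 and the receptor KIT fell by 0.31. IGFBP1 rose by 0.58 ± 0.0527 at the upper and by 0.37 at the lower step. The aryl hydrocarbon receptor targets rose in 3 of 9 (3.77% of all genes) with ALDH1A3 at 0.28, whereas CYP1B1 (-0.02) and CYP1A1 (0.43 ± 0.183, adjusted p = 0.173) were not called.

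Proliferation and housekeeping lists showed no call at the upper step. Of 29 mitosis genes, 25 S phase genes, 60 cytosolic ribosomal protein genes and 13 mitochondrial transcripts, edgeR called 0, with 4, 4, 6 and 1 at an unadjusted p under 0.05, and DESeq2 called 0, 1, 0 and 0. Their medians were -0.02, 0.01, -0.02 and 0.06, and MKI67, a marker of cycling cells, was at -0.03 ± 0.03 (adjusted p = 0.664). The endoplasmic reticulum chaperones and the interferon response had 0 of 19 and 3 of 39 members higher and 2 and 0 lower, where 3.77% of all genes rose and 3.47% fell. DESeq2 called 5 chaperones lower and 3 interferon response genes higher, and 7 chaperones had an unadjusted p under 0.05 by edgeR.

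**Figure D5:**
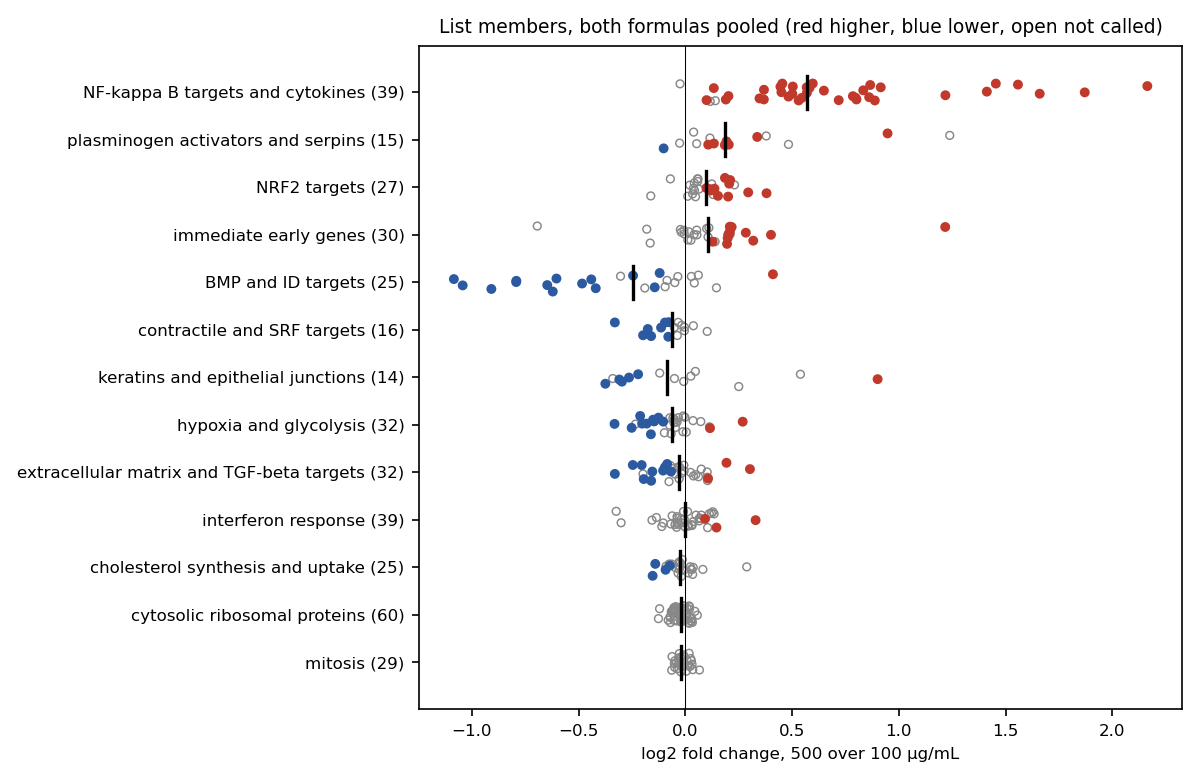
Log2 fold change from 100 to 500 µg/mL (x axis) of each tested member of 13 lists, both formulas pooled, with the number of tested members in parentheses; red points are called higher, blue points called lower, open points are not called and the black bar is the list's median. NF-kappa B targets lie to the right, BMP and ID targets to the left, and ribosomal and mitosis genes are open and near 0.

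The upper step of Sibjeondaebo-tang minus that of Palmul-tang was tested by edgeR: 0 genes were called (0%), 517 had an unadjusted p under 0.05, where 844 is 5% of the genes tested, and DESeq2 called 0. The 95% interval of that difference reached, in the median, 0.147 to either side, and for 99.3% of the same 10287 genes it lay within 1.5-fold. For CXCL8 the difference was 0.05 with a 95% interval from -0.21 to 0.31, for ID2 -0.07 from -0.31 to 0.16 and for TXNIP -0.05 from -0.28 to 0.18. A smaller difference between the formulas than these intervals allow was not detectable at this depth.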

How the data were processed

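RNA was measured by paired-end sequencing after a strand-marking library kit, per the labels' protocols. Reads were processed with FastQC 0.11.9, Trim Galore 0.6.5, STAR 2.7.3a and RSEM 1.3.3 on hg38/GRCh38, per the submitters' processing notes. The authors deposited expected counts per gene, which RSEM estimates and which need not be whole, and these were rounded. The annotation and counting strand are not given in the sources used here. Of the table's columns 30 were used, and 249 further per-sample columns were not.

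Genes were filtered by filterByExpr, libraries scaled by TMM, and the 21 libraries of vehicle, Palmul-tang and Sibjeondaebo-tang fitted with edgeR 4.0.16 (robust quasi-likelihood, R 4.3.3) on formula, dose and a vehicle mean. DESeq2 1.42.0 was an alternative, with other filters, scalings, sample sets, a replicate block, thinned counts and each library left out. The text names, above a mean log2 CPM of 1, genes from the 12 largest changes each way, the 8 largest each way in the difference of the steps, up to 4 of each list (lowest p first), and some genes set by name. Genes outside that rule were chosen after their values were seen. The comparison, its lists and its tests were chosen with earlier results of these data known. Some genes are not reported here.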

Additional observations from a re-analysis of the deposited data

How the results depend on the processing

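The 1222 genes called between 100 and 500 µg/mL, the 102 between 20 and 100, the 90 with a called difference and the 65 of the upper step class stayed within 1.5 times those counts under DESeq2, its size factors, other sample sets and thinned counts. The steps of each formula alone were read from a fit of the same 21 libraries with 1 mean per formula and dose. Each dose then has fewer samples, 3 libraries. The counts were 452, 29, 14 and 13 for Palmul-tang and 537, 37, 16 and 10 for Sibjeondaebo-tang. With no filter on low counts the difference was called for 137 genes, the class held 98 and the formula difference was called for 10, and the cause was not tested. Leaving out 1 library at a time gave 1041 to 1284, 72 to 128, 60 to 116 and 45 to 85 genes, and 0 to 0 for the formula difference. Of 139 named calls between 100 and 500 µg/mL 55 were lost in at least 1 alternative, and of 50 named calls of the difference 44 were. These alternatives include the steps of each formula alone, and 0 calls were reversed.

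Replicate numbers were not treated as pairs in the main fit, and the labels do not say whether they mark pairs. In the sample codes of both formulas the middle number equals the replicate number at every dose. The meaning of that number is not labelled. Same-numbered libraries tended to deviate together. The median correlation of deviations was 0.0797 over 45 same-numbered pairs and -0.04455 over 90 pairs with different numbers. Of the 45, 18 were over 0.1 (range -0.181 to 0.329), and 14 of 18 libraries correlated best with their own number. This is a hint from the data and not the design. With a replicate block the counts were 1363, 129, 117 and 80, and 0 for the formula difference. Depth limits the genes under a mean log2 CPM of 1, such as CSF2.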

Other observations

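Selenoproteins, grouped after the values of SELENOW were seen, moved in both directions between 100 and 500 µg/mL. Of 20 tested members 3 fell and 4 rose by edgeR's quasi-likelihood test, beside 3.47% and 3.77% of all genes. SELENOW fell by 0.66 ± 0.0332, GPX1, a glutathione peroxidase, by 0.42 ± 0.0417 (adjusted p = 2.22e-07) and SELENOH by 0.33 ± 0.0461 (adjusted p = 1.73e-06) on the log2 scale. SELENOO rose by 0.31 ± 0.0547, DIO2, a deiodinase, by 0.24 ± 0.0496, TXNRD1 by 0.20 ± 0.0238 and SEPHS2, which makes the selenium donor, by 0.20 ± 0.0422. GPX4, another glutathione peroxidase, was at -0.08 ± 0.0286 and was not called (adjusted p = 0.0996).

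Among the oligodendrocyte markers, MBP rose by 0.38 ± 0.0681 (adjusted p = 0.000131), from 5.19 to 6.81 CPM at 100 µg/mL to 6.51 to 8.14 at 500, so the libraries overlapped. The summed level of the 6 markers ran from 5.58 to 7.29 CPM and from 6.85 to 8.5, while MOG and OLIG1 were at 0 at 500 µg/mL.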
